A study of Mus musculus with 6 samples.

Results

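Gdpd3 encodes a lysophospholipase D of the glycerophosphodiester phosphodiesterase family, and its transcript showed the deepest fall of the table analysed here in uteri of Stat3 d/d mice. It was read by 1 of the 1382 probe sets in the table of normalized intensities, 1449526_a_at, the only probe set annotated to Gdpd3 there. The gene was chosen because of this fall, so its own difference is described below without a test. The arrays hold uterine RNA from female Mus musculus at 3.5 days post coitum, 3 arrays from Stat3 f/f mice (floxed alleles intact) and 3 from Stat3 d/d mice (deleted alleles). The promoter driving the recombinase, the strain, the age and the number of animals behind each array are not stated in the labels, so p-values speak of the spread among these arrays alone, which could be technical. The number of arrays limits the precision.

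Enzymes of this family cut the phosphodiester bond of glycerophospholipids that have lost acyl chains. GDPD3 acts on lysophospholipids, releasing the head group and leaving lysophosphatidic acid. It can also release N-acylethanolamines, the lipid class of anandamide, from their lysophospholipid precursors. Lysophosphatidic acid signals through cell surface receptors, and in the mouse uterus its receptor LPA3 is known for setting the time and spacing of implantation. Stat3 encodes a transcription factor switched on by the interleukin-6 family of cytokines, which includes the implantation factor LIF.

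The sequence before the Gdpd3 start site is shown because the deleted gene encodes a DNA-binding factor and Gdpd3 was the deepest fall. RefSeq's promoter table (GRCm38.p6) held 1 entry for Gdpd3. Capitals mark a match to TGTTCT, a hexamer that the progesterone receptor binds in pairs (here on the opposite strand). The 250 bases upstream of the Gdpd3 start, at chr7:126766164-126766413 on the + strand, read 5′ to 3′ as follows.
Gdpd3 upstream: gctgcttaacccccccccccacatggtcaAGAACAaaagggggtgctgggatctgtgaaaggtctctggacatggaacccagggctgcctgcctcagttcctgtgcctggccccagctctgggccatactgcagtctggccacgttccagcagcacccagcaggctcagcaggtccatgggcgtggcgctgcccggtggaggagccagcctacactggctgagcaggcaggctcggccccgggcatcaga
The palindromic STAT motif TTCNNNGAA, in which N is any base, was not in these 250 bases, and 7.02% of the 32851 RefSeq promoter windows of the same length held it. AGGTCA, a hexamer that the oestrogen receptor binds, was not in the window on either strand (14.0% of windows held it). The hexamer in capitals lies 221 bases before the start and was found in 16.1% of windows. The window is rich in G and C, at 65.2% against a median of 52.4% over all windows. These matches describe letters in a short window and not binding.

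Gdpd3 read 445, 525 and 492 in Stat3 f/f replicates 1, 2 and 4 (normalized intensity). In Stat3 d/d replicates 1, 2 and 3 it read 13.5, 17.7 and 9.94. Every Stat3 f/f array was far above every Stat3 d/d array, and the groups did not overlap. The means were 487 ± 40.6 and 13.7 ± 3.86 (SD, n = 3 arrays each), so that 2.81% of the Stat3 f/f intensity was left. Taking single arrays, the lowest Stat3 f/f value was 25.2-fold above the highest Stat3 d/d value, and the highest was 52.9-fold above the lowest. The table holds no detection calls, so whether a reading near 10 lies above the background of this probe set cannot be read from it, and the fold is no measure of how much transcript remained. As the RNA came from whole uterus, fewer cells of a type and less RNA per cell cannot be told apart.

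**Figure D1:**
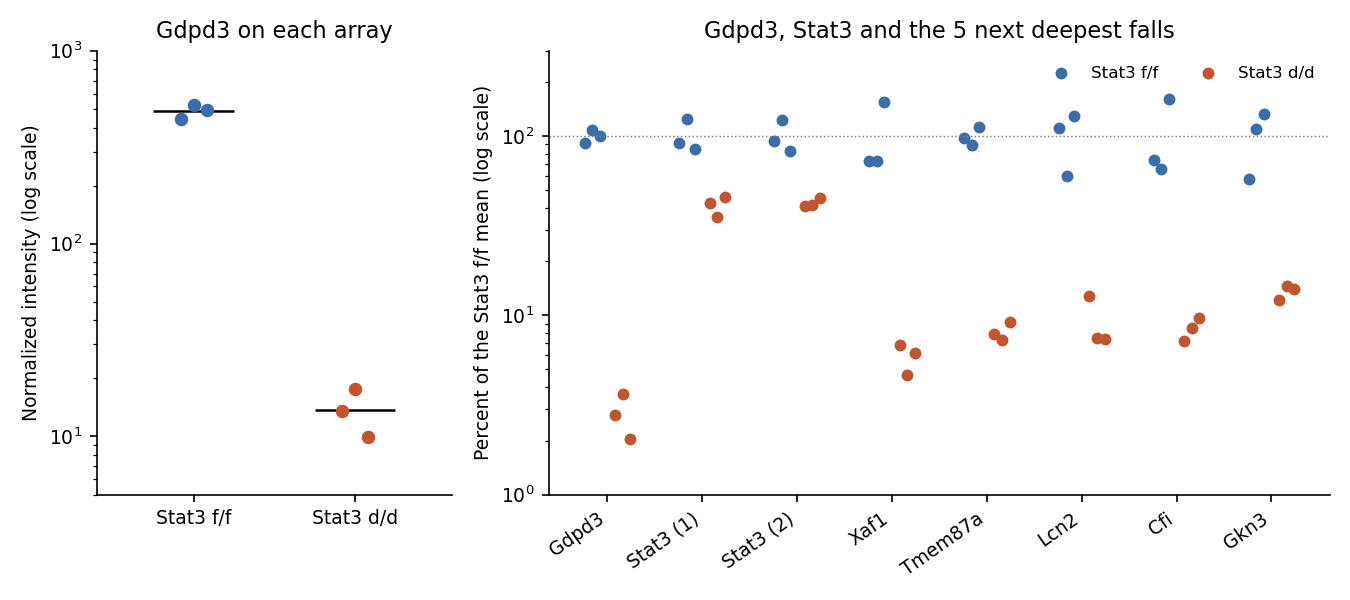
Left, the normalized intensity of Gdpd3 on each array (log axis), with points for arrays and lines for group means. Right, Gdpd3, both Stat3 probe sets (1, brighter; 2, dimmer) and the 5 next deepest falls with a gene symbol, each array as a percentage of that probe set's Stat3 f/f mean (log axis); Gdpd3 is at 2.81% of its Stat3 f/f mean in Stat3 d/d, and the Stat3 probe sets at 41.0% and 42.6%.

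The spread between arrays was unequal between the groups. On the log2(intensity + 1) scale, the SD of Gdpd3 was 0.12 in Stat3 f/f, against a median SD of 0.22 over all probe sets. In Stat3 d/d its SD was 0.38, against a median of 0.17. The tight group was thus the one with high readings, and relative to the mean the SD was 8.33% in Stat3 f/f against 28.2% in Stat3 d/d. The floxed gene itself was less deeply lowered than Gdpd3. The brighter Stat3 probe set, 1460700_at, read 262, 356 and 243 in Stat3 f/f replicates 1, 2 and 4, and 121, 101 and 131 in Stat3 d/d replicates 1, 2 and 3. Stat3 d/d replicate 2, with the highest Gdpd3 reading of its group, had the lowest reading on this Stat3 probe set but not on the other, 1426587_a_at, which read 103, 104 and 114 in Stat3 d/d replicates 1, 2 and 3.

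The log2 difference of Gdpd3, Stat3 d/d minus Stat3 f/f, was -5.09. This was rank 1 of 1382 by depth of fall. The next fall was -3.89, a gap of 1.19, and the one after it followed 0.35 above. On this log2(intensity + 1) scale 5 probe sets fell at least 8-fold and 1, Gdpd3, at least 16-fold, while by the ratio of mean intensities Xaf1 also fell 17.0-fold and Gdpd3 35.6-fold. By size in either direction Gdpd3 ranked 2, behind an unnamed probe set that was higher by 6.46. By the drop in intensity itself, 474 units, it ranked 13. It kept rank 1 among falls without any 1 array (-4.89 to -5.27), after quantile normalization (-5.57) and with a pseudocount of 16 (-4.09). Median centring of the arrays (-5.55) moves all differences by the same amount, so it could not change the rank.

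**Figure D2:**
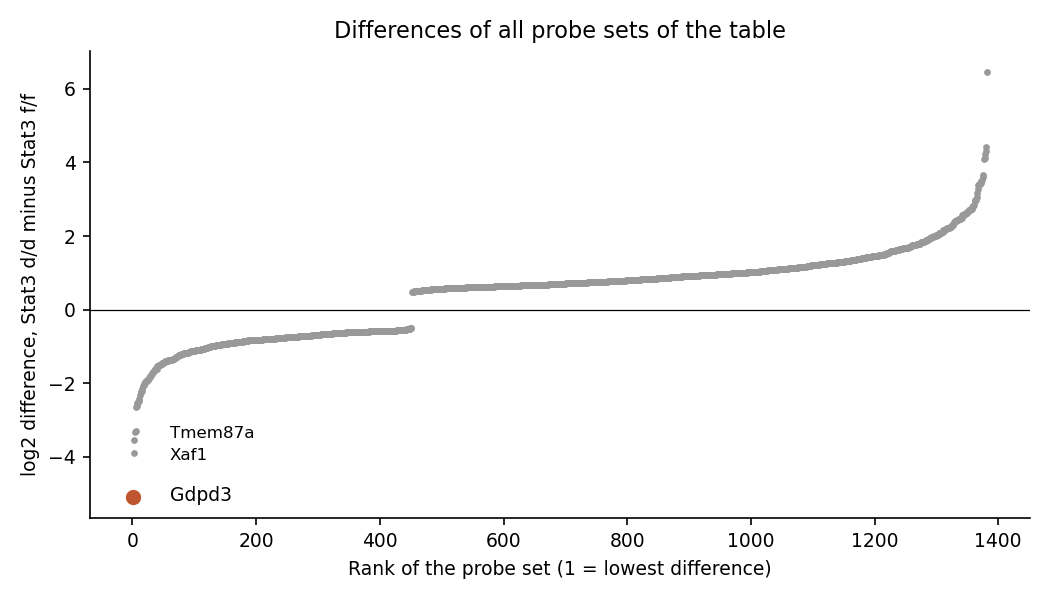
The log2 difference of each of the 1382 probe sets, Stat3 d/d minus Stat3 f/f, against its rank from lowest to highest. Gdpd3, at -5.09, stands 1.19 below the next probe set, which reads Xaf1; the empty band around 0 shows that the table holds no small differences.

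The table had been selected on this contrast. All 1382 probe sets have group means at least 1.5-fold apart and groups that do not overlap, so a gene outside it was not analysed here. In limma, with Benjamini-Hochberg adjustment over all probe sets and a threshold of 0.05, the threshold was passed by 931 probe sets that rose in Stat3 d/d (67.4%) and by 451 that fell (32.6%), the whole table. Passing the test therefore adds little to being in the table. The median difference of all probe sets was 0.70, and median centring and quantile normalization lowered it to 0.24 and 0.25. After them 422 (30.5%) and 436 (31.5%) probe sets were higher past the threshold, with 451 lower in both. Because rises outnumber falls in the selected table, both rescalings tend to make rises smaller and falls deeper. A call lost after them may come from this shift alone. When the adjustment assumed 45000 tests, near the number of probe sets on the full array, 518 (37.5%) passed.

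The falls just short of Gdpd3 belonged to genes of varied function. Xaf1, an interferon-induced gene linked to cell death, read 138, 139 and 294 in Stat3 f/f against 13.1, 8.86 and 11.7 in Stat3 d/d on probe set 1443621_at (-3.89). But its other probe set, 1443698_at, which was brighter over all arrays, went the opposite way (1.98). Tmem87a, a membrane protein gene, read 201, 182 and 231 against 16.1, 14.9 and 18.8 (-3.54). The iron-binding lipocalin Lcn2, the complement protease Cfi and the gastrokine Gkn3 had differences of -3.33, -3.31 and -2.62. For Gkn3 a second probe set gave -1.73. Of the probe sets in the table only Gdpd3 was below 5% of its Stat3 f/f mean: the next lowest share was 5.89%, for Xaf1.

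The family members in the table besides Gdpd3 went the other way. Of the 6 other glycerophosphodiester phosphodiesterase genes listed (Gde1, Gdpd1, Gdpd2, Gdpd4, Gdpd5 and Gpcpd1), 2 were in the table and both were higher in Stat3 d/d, where 66.9% of all genes in the table were higher. Gdpd1, which like Gdpd3 has lysophospholipase D activity, read 5.97, 9.59 and 10.5 in Stat3 f/f against 25.6, 22.4 and 25.1 in Stat3 d/d. It rose 2.81-fold (log2 difference 1.42, SE 0.21, limma adjusted p = 0.000245). Its Stat3 f/f readings are low and may not lie above background, which cannot be read from the table, so the fold is uncertain. Gpcpd1, whose product splits glycerophosphocholine, rose from 131 ± 26.3 to 204 ± 19.6 (SD, n = 3; 0.65, SE 0.19, limma adjusted p = 0.00706). Its call was lost after median centring (0.18, limma adjusted p = 0.397) and quantile normalization (0.27, limma adjusted p = 0.216), while that of Gdpd1 was kept under both. Gpcpd1 also did not pass with 45000 assumed tests (limma adjusted p = 0.230).

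For lysophosphatidic acid, the product of Gdpd3, 2 of 20 listed genes were in the table, 1 higher and 1 lower. Of all genes in the table, 66.9% were higher. Lpar3, the gene of the receptor LPA3, read 53.9, 49.4 and 34.3 in Stat3 f/f against 72.0, 78.5 and 87.5 in Stat3 d/d. It rose 1.73-fold (0.80, SE 0.20, limma adjusted p = 0.00391), and lost its call after median centring (0.33, limma adjusted p = 0.173) and quantile normalization (0.36, limma adjusted p = 0.142). Plpp1, a phosphatase that removes the phosphate of lysophosphatidic acid, read 398, 502 and 410 in Stat3 f/f against 253, 285 and 306 in Stat3 d/d, and fell to 64.4% (-0.63, SE 0.17, limma adjusted p = 0.00571). Neither passed with 45000 assumed tests. The gene of autotaxin, Enpp2, the secreted lysophospholipase D, was not in the table and was not analysed here.

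Of 20 genes listed for N-acylethanolamines and endocannabinoids, 3 were in the table and all 3 rose, where 66.9% of all genes in the table did. Naaa, an acid amidase that breaks down N-acylethanolamines, rose from 70.0 ± 7.25 to 123 ± 5.71 (0.80, SE 0.16, limma adjusted p = 0.00145), and was at 0.34 after median centring (limma adjusted p = 0.0826). Abhd12, a hydrolase of lysophosphatidylserine and 2-arachidonoylglycerol, rose by 0.76 (SE 0.21), with 0.29 after median centring (limma adjusted p = 0.209). Ptpn22, a phosphatase also proposed to act in anandamide synthesis, rose from 14.7 ± 6.95 to 42.8 ± 7.47 (1.56, SE 0.29). Ptpn22 is best known as a lymphocyte gene, and all 5 of the 14 leukocyte markers in the table were higher as well, with a summed intensity of 135 to 225 in Stat3 f/f against 385 to 641 in Stat3 d/d. Their part in the result was not tested.

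Of 38 phospholipase and lysophospholipase genes, 4 were in the table, 2 higher and 2 lower (66.9% of all genes in the table were higher). Pla2g4a, cytosolic phospholipase A2, which releases arachidonic acid and leaves a lysophospholipid, read 166, 107 and 279 in Stat3 f/f against 411, 485 and 493 in Stat3 d/d (1.43, SE 0.29, limma adjusted p = 0.00152). Its Stat3 f/f arrays were spread widely, with replicate 4 highest and replicate 2 lowest. Sec23ip, a relative of the phospholipases A1 found at exit sites of the endoplasmic reticulum, fell from 131 ± 19.7 to 47.7 ± 4.74 (-1.43, SE 0.18, limma adjusted p = 9.28e-05). Lipg, endothelial lipase, fell by 0.93 (SE 0.22) and Abhd3, a phospholipase, rose by 0.62 (SE 0.18). The call of Abhd3 was lost after median centring (0.16, limma adjusted p = 0.419) and with the replicate number as a block (0.49, limma adjusted p = 0.0544). The block fit takes its difference from replicates 1 and 2 alone.

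Of 48 genes of glycerophospholipid synthesis and acyl remodelling, 7 were in the table, 6 higher and 1 lower, with a median of 0.94. In the table as a whole, 66.9% of genes were higher and their median was 0.70. The cholinephosphotransferase Chpt1, which makes phosphatidylcholine, rose from 113 ± 19.8 to 225 ± 7.16 (1.01, SE 0.18), and its second probe set gave 0.91. The phosphatidate phosphatase Lpin1 rose by 0.95 (SE 0.17) and the lysophospholipid acyltransferase Mboat2 by 0.94 (SE 0.18). The related CDP-diacylglycerol synthases Cds1 and Cds2 went opposite ways, from 4.78 ± 0.30 to 10.4 ± 1.13 (0.97, SE 0.16) and from 21.2 ± 5.21 to 12.2 ± 2.03 (-0.74, SE 0.22). The Cds1 readings are low and may not lie above background. With 45000 assumed tests Cds1 passed (limma adjusted p = 0.0185) and Cds2 did not (limma adjusted p = 0.238). The glycerol-3-phosphate acyltransferase Gpat3 (0.93, SE 0.22) and the ethanolamine kinase Etnk1 (0.87, SE 0.23) lost their calls after median centring (0.46 and 0.40, limma adjusted p = 0.0953 and 0.142).

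Over these 5 lists, 18 of 132 genes other than Gdpd3 were in the table, 14 higher and 4 lower. The share higher was 77.8%, where 66.9% of all genes in the table were higher. Their median difference was 0.84, against 0.70 over all 987 genes with 1 symbol, and their range was -1.43 to 1.56. None could fall deeper than Gdpd3, which was chosen as the deepest fall of the table. With 45000 assumed tests 9 of the 18 passed, where 35.9% of all genes in the table did. After median centring 7 were higher and 4 lower past the threshold, where 30.5% and 32.6% of all probe sets were. After quantile normalization 8 were higher and 4 lower, where 31.5% and 32.6% of all probe sets were.

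**Figure D3:**
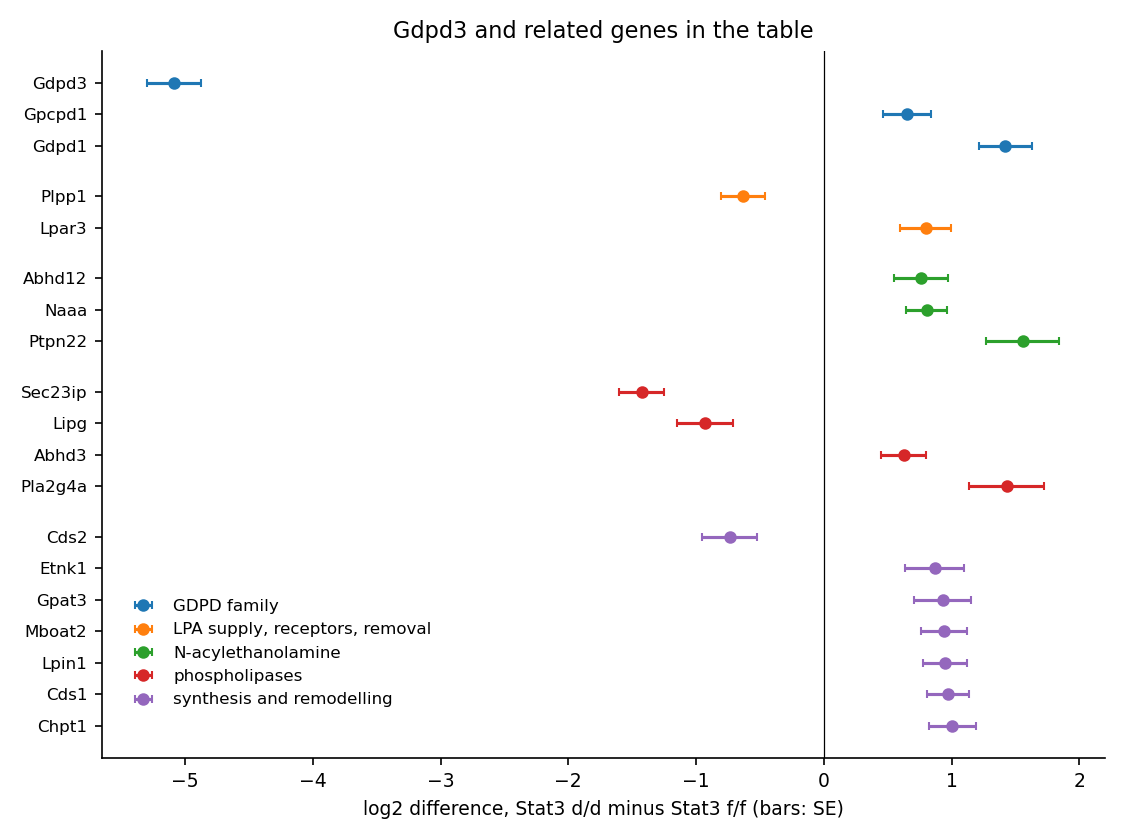
The log2 difference, Stat3 d/d minus Stat3 f/f, of Gdpd3 and the 18 related genes in the table, by list (colours), with bars for the SE from limma. Gdpd3 is at -5.09, while the other genes lie between -1.43 and 1.56. Before the arrays are rescaled 14 are above 0, where 66.9% of all genes in the table are.

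Gdpd3 was chosen as the deepest fall of the table, so no neighbour could be lower, and the genes near it are only described. Gdpd3 lies on chromosome 7 and Stat3 on chromosome 11 in the RefSeq gene table of GRCm38.p6. Among the 20 annotated genes on each side of Gdpd3, 3 of 40 were in the table. Both direct neighbours, Mapk3 and Ypel3, were outside it and not analysed here. Coro1a, an actin regulator of leukocytes 3 genes before Gdpd3, rose from 59.8 ± 14.2 to 117 ± 28.2 (0.95, SE 0.23, limma adjusted p = 0.00352). Slx1b, a subunit of a structure-specific nuclease 5 genes before, rose by 0.85 (SE 0.19) between dim readings, 3.90 ± 0.91 and 7.78 ± 1.02. Eif3c, a subunit of the translation initiation factor eIF3 18 genes before, fell from 348 ± 81.2 to 202 ± 27.9 (-0.76, SE 0.20, limma adjusted p = 0.00501). The calls of Coro1a and Slx1b were lost after median centring (0.49 and 0.38, limma adjusted p = 0.0865 and 0.119), and with 45000 assumed tests none of the 3 passed. Of 78 chromosome 7 genes in the table, 33 were lower (42.3%), against 33.1% of all genes in the table, a difference that was not tested, and the lowest after Gdpd3 was Hddc3, at -2.07.

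The genes whose readings were most like those of Gdpd3 were sought by Pearson r of log2(intensity + 1) over the 6 arrays, as a description. All probe sets share the group contrast, so r was high for most falls, with a median of 0.91. The 5 genes with the highest r were Slc39a8, a zinc transporter (0.997), the 14-3-3 protein gene Ywhaz (0.997), the cyclin D1 gene Ccnd1 (0.997), the small heat shock protein gene Hspb7 (0.993) and the hydrolase gene Hddc3 (0.993). Their readings were close within each group, and their differences were smaller than that of Gdpd3, as for every other fall of the table. Slc39a8 read 179, 176 and 184 in Stat3 f/f against 96.8, 106 and 92.8 in Stat3 d/d (-0.86). The Ccnd1 probe set 1417419_at read 171, 181 and 170 against 43.0, 41.2 and 40.2 (-2.04), and the other one, 1417420_at, gave -0.59. Hspb7 gave -0.60 on the probe set that was like Gdpd3 and 1.43 on its other, brighter probe set. All 5 Ywhaz probe sets were lower, from -0.61 to -0.93.

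Within the groups, likeness was taken as r of the deviations from the group means over the same 6 arrays. Among probe sets that fell, the median was 0.03. The highest values with a gene symbol were those of A930005H10Rik (0.94), Lrrc49 (0.93), the peptidase gene Pgpep1 (0.92), the cohesin acetyltransferase gene Esco1 (0.91) and the phospholipid-transporting ATPase gene Atp10d (0.90). In each of these the Stat3 d/d arrays held the order of Gdpd3, with replicate 2 highest and replicate 3 lowest. Pgpep1, for example, read 14.0, 19.1 and 12.6 there in replicates 1, 2 and 3. A second Esco1 probe set, brighter over the 6 arrays, was higher in Stat3 d/d (2.48). The second A930005H10Rik probe set was lower (-0.86), with an r of deviations of 0.70. Over all probe sets, 0.94% had an r of deviations above 0.9, in a comparison that rests on 6 arrays. This r weighs mostly the Stat3 d/d arrays, where the SD of Gdpd3 was 0.38 against 0.12 in Stat3 f/f. The Gdpd3 readings in Stat3 d/d may not lie above background.

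**Figure D4:**
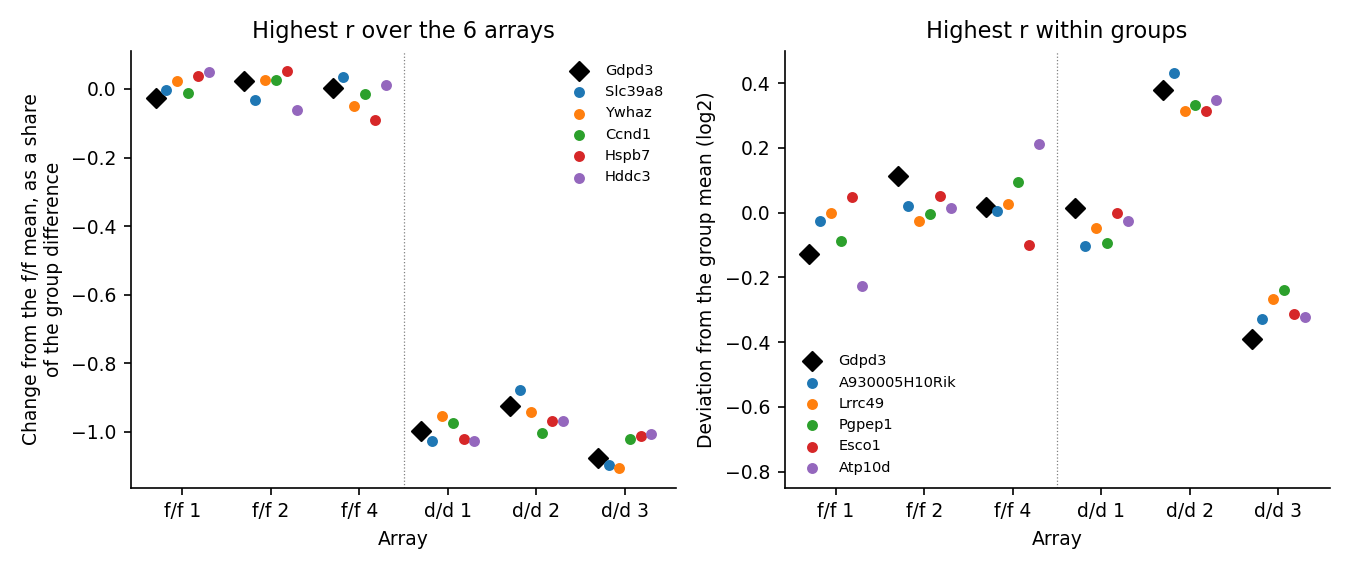
Gdpd3 (black diamonds) and the 5 genes most like it over the 6 arrays (left) or within the groups (right). The left axis is the change from the Stat3 f/f mean of log2(intensity + 1) divided by the size of that gene's group difference. The right axis is the deviation from the group mean (log2). At right the genes share the high Stat3 d/d replicate 2 and the low replicate 3 with Gdpd3, which their choice by r favours.

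Markers of uterine cell types moved beside Gdpd3 in both directions. Of 18 listed epithelial markers 4 were in the table, Calb1, Cldn3, Cldn4 and Lpar3, and all 4 were higher in Stat3 d/d (66.9% of all genes in the table were), with a summed intensity of 1211 to 1523 in Stat3 f/f against 3388 to 3715 in Stat3 d/d. Most of that gain came from Calb1, which went from 692 to 2317. Of 11 gland markers 4 were in the table. Aldh1a1, Lgr5 and Sox9 were lower and Ttr higher, where 33.1% of all genes in the table were lower. The sum of the 4 was 156 to 509 in Stat3 f/f against 112 to 139 in Stat3 d/d. Stat3 f/f replicate 4 had the highest Aldh1a1 (432) and Lgr5 (48.9) readings, where the other Stat3 f/f arrays had at most 114 and 12.6. The Gdpd3 reading of that array, 492, lay between those of the other Stat3 f/f arrays. Of 12 stromal markers 2 were in the table, Dcn and Wnt4, both lower (33.1% of all genes in the table were). Their sum was 51.7 to 122 in Stat3 f/f and 27.2 to 32.4 in Stat3 d/d. The 8 smooth muscle and 5 endothelial markers were not in the table, so the uterine label could be checked against only part of its markers. From the ovary and oviduct list Ovgp1 was in the table, at 7.42 to 31.3 in Stat3 f/f against 240 to 494 in Stat3 d/d. Of 5 embryo markers 1 was in the table, Eomes, at 6.07 to 7.22 in Stat3 f/f against 16.3 to 25.4 in Stat3 d/d. Its Stat3 f/f readings are low and may not lie above background. The part of these cell types in the fall of Gdpd3 was not tested.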

How the data were processed

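The deposited table gives probe set intensities on a linear scale for 6 Affymetrix arrays. Per the submitters' processing notes the authors used RMA (background correction, quantile normalization and probe summary; no version), and a return from log2 to linear values is not recorded in the sources used here. The build behind the annotation is not given in those sources either. Groups came from the source names and replicate numbers from the titles.

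Probe sets were named by the platform annotation (1191 with 1 symbol, 57 with several, 134 unnamed here), and 1186 matched RefSeq identifiers of GRCm38.p6 with 0 symbols changed. Values were taken as log2(intensity + 1), which understates changes of dim probe sets. Groups were compared with limma 3.58.1 in R 4.3.3 (lmFit, eBayes, no covariate), and p-values were Benjamini-Hochberg adjusted over the 1382 probe sets. The brightest probe set stood for a gene in the lists, among the neighbours and in counts of genes. The next deepest falls and the likeness to Gdpd3 were sought over all probe sets with 1 symbol. The fit was tested on simulated data. Figures used matplotlib 3.10.9.

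Named were Gdpd3, Stat3, the 5 genes with the next deepest falls, the 5 most like Gdpd3 by each measure, and list members (up to 8 a list) and neighbours in the table. Marker genes are named besides, as are, after their values were seen, genes of chromosome 7 in the closing section. Gene, lists and rule were chosen with earlier results of these data known, and the promoter motifs after the values were seen. Alternatives were other pseudocounts, median centring, quantile normalization, leaving out each array, a replicate block, leaving out the dimmest 25% of probe sets, averaging over the probe sets of a gene, Spearman's rho and, added after the data were seen, 45000 assumed tests.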

Additional observations from a re-analysis of the deposited data

How the results depend on the processing

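The log2 difference of Gdpd3 was -5.09, between -4.89 and -5.27 when any 1 array was left out, -5.19 without a pseudocount and -5.05 as a log2 ratio of arithmetic means. It moved by more than the SD between replicates (0.29) with a pseudocount of 16 (-4.09), which compresses low readings by construction. It also moved by more than that SD after median centring (-5.55) and quantile normalization (-5.57), which lower differences where rises outnumber falls. The rank of Gdpd3 was 1 in all of these and without the dimmest 25% of probe sets. Median centring shifts every difference equally and leaving out dim probe sets alters none, so neither could change the rank. All 1382 probe sets passed the threshold in the fit as reported, 1347 to 1377 with 1 array left out, 873 after median centring, 887 after quantile normalization and 518 with 45000 assumed tests. Of the 18 related genes, 18 passed with any 1 array left out, 11 after median centring and 9 with 45000 assumed tests. Of the 3 neighbours, 3 passed with any 1 array left out, 1 after median centring, 1 after quantile normalization and 0 with 45000 assumed tests, where limma had put all 3 under an unadjusted p of 0.05. The median r of the 5 genes most like Gdpd3 was 0.997, and Spearman's rho for them 0.89, which the few ranks of 6 arrays allow. No difference of a related or neighbouring gene changed sign under any setting run.

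Replicate numbers 1 and 2 occur in both groups. Deviations from the group means correlated at 0.09 and 0.03 between same-numbered arrays over the 1382 probe sets, so the numbers were not taken as pairs. With the replicate block the Gdpd3 difference was -4.88 at rank 1, 1284 probe sets passed, and 17 of the 18 related genes did. Stat3 f/f replicate 4 and Stat3 d/d replicate 3 have no same-numbered array in the other group. The differences of the block fit therefore come from replicates 1 and 2 alone.

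The table analysed had been selected on this contrast and holds no detection calls, so scaling between arrays and the background level of Gdpd3 could not be assessed.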

Other observations

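Chromosome 7, which carries Gdpd3, held 78 genes in the table, and 9 of them differed at least 4-fold. Of these 9, Gdpd3 and Hddc3 were lower in Stat3 d/d. The others were higher and lay far from Gdpd3 in gene order. Among them were the tripartite motif genes Trim34a (3.39), Trim30d (3.29), Trim12a (2.83) and Trim30a (2.06), between 546 and 561 annotated genes before Gdpd3, and Rps9 (4.31), Kctd14 (2.37) and Prap1 (2.19). These genes were named after their values were seen. Over all 1382 probe sets, 19 fell at least 4-fold. The smallest of the 9 differences, that of Trim30a, ranked 96 by size in either direction among all probe sets. A further probe set of Trim34a gave -0.61. Each gene was counted by its brightest probe set, and a dimmer probe set of Ccnd1, also on chromosome 7, gave -2.04.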
